A study of Mus musculus with 6 samples.

Results

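The cells described here came from a mouse mammary tumour that grew back after treatment (Recurrent) and from an untreated primary tumour (Primary). They were chosen by library name and by a filter on each cell that required 500 or more UMIs (counted RNA molecules) and 200 or more genes, with mitochondrial UMIs not above 20%. This kept 9013 cells, 4685 Recurrent and 4328 Primary, of the 24603 cells deposited in the 6 libraries of the series. Both groups were transplanted mammary tumours in mice of strain FVB (FVB.rGH-Luc-GFP). The genotype is labelled MMTV-Wnt1/iFGRR3 for Recurrent and MMTV-Wnt1/iFGRR2 for Primary, and the labels do not say whether the last digit marks a real difference. MMTV-Wnt1 is a transgene that drives the growth signal Wnt1 from a mammary promoter. The labels' protocol describes injection of a B/B homodimerizer every 3 days until tumours grew without it. Recurrent mice were 20 to 22 weeks old, had been given NVP-BGJ398, an inhibitor of FGF receptors, over 14 days from a tumour size of 7 to 9 mm, stayed off drug for 14 days and were then left until tumours recurred. Primary mice were 8 to 10 weeks old. Age, time since transplantation and past inhibitor treatment therefore cannot be told apart from recurrence. How many animals went into a library is not given. Cells of both groups were frozen, thawed, sorted alive and run with version 2 of the Chromium 3' kit.

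With 1 library on each side there was no replicate check and no test between the groups. Every interval below is at 95% and covers counting error only, and cells are not replicates. Stage was compared by levels, given as UMIs per 1000000 UMIs of a cell class (CPM), and by the ratio of Recurrent over Primary CPM.

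The luminal epithelium lines the milk ducts, and in pregnancy and lactation its alveolar cells make milk proteins under prolactin. Wnt proteins act through frizzled receptors and beta-catenin and switch on their own inhibitors, so feedback genes such as Nkd1, Znrf3 and Wif1 are commonly read as a gauge of the pathway. FGF receptors signal through MAP kinases, which induce sprouty and dual-specificity phosphatase genes. Notch receptors, once cut by gamma-secretase, induce Hes and Hey genes. Tumour macrophages derive from monocytes or from resident tissue macrophages and are known for making cytokines, chemokines and matrix enzymes.

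The deposited table held 41259292 UMIs for Recurrent and 28138696 for Primary. After removal of 57 Recurrent and 53 Primary doublets, 4628 Recurrent and 4275 Primary cells were used, with a median of 7502.5 UMIs per cell in Recurrent and 5671 in Primary. The libraries shared 41 cell barcodes, 0.801% of Recurrent and 0.832% of Primary barcodes. Depth differed most in luminal-like cells, at a median of 9507 UMIs in Recurrent and 5621 in Primary, and their median mitochondrial share was 3.67% in Recurrent and 5.90% in Primary. Cells were named from clusters built on marker genes alone, so that other genes did not shape the classes. All 9 epithelial markers, among them Epcam, Krt8 and Krt18, were detected in luminal-like cells of both libraries, with a summed level of 5585 CPM in Recurrent and 6145 CPM in Primary. Macrophage markers there summed to 154 CPM in Recurrent and 231 CPM in Primary, and basal epithelial markers to 74.1 CPM in Recurrent and 52.7 CPM in Primary.

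Luminal-like cells dominated the Recurrent epithelium, whereas the Primary epithelium also held basal-like cells. Luminal-like cells made up 99.4% (99.1 to 99.7%) of 2655 epithelial-like cells in Recurrent and 82.5% (80.8 to 84.1%) of 2093 in Primary. Basal-like cells, whose marker list includes Krt5 and Krt14, numbered 15 in Recurrent and 366 in Primary. Cells with Krt14 were not confined to this class. At resolution 2.0 a cluster named luminal, with Krt14 as its top gene, held 139 Recurrent and 26 Primary cells. With clustering on variable genes, another luminal cluster with Krt14 and Krt17 among its top genes held 42 Recurrent and 11 Primary cells. In the other direction, a luminal cluster at resolution 2.0 with the basal marker Trp63 among its top genes held 3 Recurrent and 34 Primary cells. Immune cells were 40.3% (38.8 to 41.7%) of all cells in Recurrent and 50.1% (48.6 to 51.6%) in Primary. Among immune cells, macrophage- or monocyte-like cells took 63.0% (60.8 to 65.2%) in Recurrent and 54.6% (52.4 to 56.7%) in Primary. T- and NK-like cells took 25.2% (23.3 to 27.3%) in Recurrent and 33.0% (31.0 to 35.1%) in Primary. Neutrophil-like cells, known for little RNA, were 2.15% (1.54 to 2.91%) of immune cells in Recurrent and 2.43% (1.82 to 3.17%) in Primary, intervals that overlap. Plasmacytoid-dendritic-like cells were 3.33% (2.56 to 4.25%) of immune cells in Recurrent and 1.77% (1.26 to 2.43%) in Primary, with 62 cells in Recurrent and 38 in Primary. At resolution 2.0 they numbered 27 in Recurrent and 20 in Primary, and with clustering on variable genes 26 in Recurrent and 21 in Primary. Another cluster at resolution 2.0, named macrophage with plasmacytoid dendritic as its second score, held 35 Recurrent and 18 Primary cells. In the Recurrent class of 62 cells all 12 macrophage or monocyte markers were detected, summing to 14199 CPM. Plasmacytoid dendritic markers there summed to 978 CPM. The part of macrophages in this class, and in its difference in share, was not tested. Stromal classes were small. Fibroblast-like cells numbered 104 in Recurrent and 8 in Primary, and pericyte-like cells, in the opposite direction, 1 in Recurrent and 23 in Primary. Endothelial-like cells numbered 5 in Recurrent and 10 in Primary. Pericyte-like cells were not separated from fibroblast-like ones at a lower clustering resolution. Dendritic-like cells were 5.21% (4.24 to 6.31%) of immune cells in Recurrent and 6.31% (5.31 to 7.42%) in Primary, but under 3 other clusterings the class was 1.88 to 2.42% in Recurrent and 2.80 to 3.46% in Primary, so its genes are not described.

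**Figure D1:**
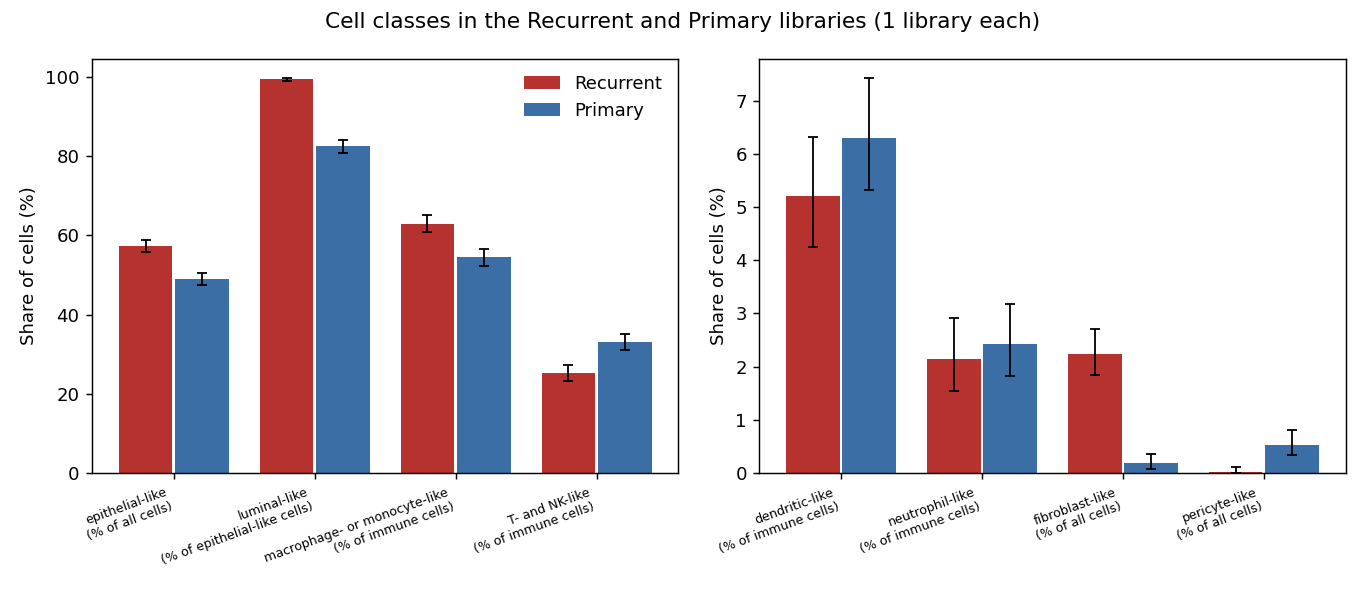
Share of cells (%) in each class, with the denominator named under each pair of bars, for the Recurrent library (left bar) and the Primary library (right bar), 1 library each; error bars are 95% Clopper-Pearson intervals for counting error. The luminal-like share of epithelial-like cells stands at 99.4% in Recurrent and 82.5% in Primary, and fibroblast-like cells at 2.25% in Recurrent and 0.187% in Primary.

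In luminal-like cells, 2640 in Recurrent and 1727 in Primary, the Recurrent library was higher in milk protein, acute-phase and interferon-response genes. It was lower in genes of mitosis and Wnt feedback. Chemokine genes differed in both directions, with more of them higher than lower. Of 10895 genes with at least 50 UMIs over both libraries, 486 (4.46%) were at least 2-fold higher and 771 (7.08%) at least 2-fold lower in Recurrent. The median log2 ratio over all of them was -0.05. These shares are the background for the counts that follow.

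Casein genes were among those with the highest ratios in luminal-like cells. Csn2, which encodes beta-casein, had 716 CPM (706 to 726) in Recurrent and 17.8 CPM (15.4 to 20.4) in Primary, a 40.2-fold difference. It lies on chromosome 5 from 87692624 to 87699630 (mm10), within the casein gene cluster. A Csn2 UMI was found in 23.6% of luminal-like cells in Recurrent and 0.869% in Primary. With every cell thinned to 2000 UMIs, which left out 58 Recurrent and 83 Primary cells, the shares were 12.7% (11.4 to 14.0%) in Recurrent and 0.669% (0.334 to 1.19%) in Primary. In macrophage- or monocyte-like cells, which should lack caseins, the thinned share was 2.96% in Recurrent and 0% of 1149 cells in Primary, where a count of 0 allows up to 0.321% by the exact interval. Other caseins followed the same direction, Csn1s1 at 167 CPM in Recurrent and 12.6 CPM in Primary and Csn1s2a at 174 CPM in Recurrent and 21.6 CPM in Primary. A single Primary cell held 28.1% of the Csn2 and 30.1% of the Csn1s2a UMIs of its class, while no Recurrent cell held more than 5.31%. Wap, the whey acidic protein, had 62.4 CPM in Recurrent and 16.9 CPM in Primary. Lalba, the alpha-lactalbumin of lactose synthesis, had 869 CPM in Recurrent and 268 CPM in Primary. Btn1a1, a protein of the milk fat globule, had 14.6 CPM in Recurrent and 4.03 CPM in Primary. Csn3, or kappa-casein, was abundant in both, with 16172 CPM in Recurrent and 9327 CPM in Primary, less than a 2-fold difference.

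Of 19 measured genes on the list of luminal progenitor and milk genes, 8 were at least 2-fold higher and 1 lower in Recurrent, with a median log2 ratio of 0.79. The 1 lower gene was Kit, a progenitor receptor, with 42.9 CPM in Recurrent and 104 CPM in Primary. The milk iron carrier Trf had 2129 CPM in Recurrent and 3759 CPM in Primary. Spp1, osteopontin, had 10307 CPM in Recurrent and 4019 CPM in Primary. Lactoferrin, Ltf, an antimicrobial iron-binding protein of milk and of neutrophil granules, had 712 CPM (703 to 722) in Recurrent and 59.4 CPM (55.1 to 64.1) in Primary. Its thinned share of cells was 39.0% in Recurrent and 5.54% in Primary. Prlr, the prolactin receptor, had 106 CPM in Recurrent and 49.5 CPM in Primary. The promoters of the 3 leading caseins are shown because prolactin acts on milk genes through STAT5, whose consensus is TTCNNNGAA. The windows run from 250 bases before to 50 bases after the transcript start (RefSeq, GRCm38.p6), 5′ to 3′ on the gene's strand, with the match in capitals.
Csn1s1, chr5:87665958-87666257, + strand: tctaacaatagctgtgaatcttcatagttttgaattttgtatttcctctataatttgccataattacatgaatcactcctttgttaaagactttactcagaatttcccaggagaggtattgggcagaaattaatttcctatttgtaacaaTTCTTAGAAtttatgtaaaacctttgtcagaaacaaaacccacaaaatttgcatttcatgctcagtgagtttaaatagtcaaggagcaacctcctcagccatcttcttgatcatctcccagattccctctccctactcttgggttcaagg
Csn2, chr5:87699376-87699675, - strand: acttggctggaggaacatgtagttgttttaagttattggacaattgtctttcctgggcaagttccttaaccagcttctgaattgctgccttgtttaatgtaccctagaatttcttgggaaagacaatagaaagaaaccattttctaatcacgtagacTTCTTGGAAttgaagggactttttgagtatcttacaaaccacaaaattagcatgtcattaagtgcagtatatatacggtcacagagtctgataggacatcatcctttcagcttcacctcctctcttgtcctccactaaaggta
Csn1s2a, chr5:87774200-87774499, + strand: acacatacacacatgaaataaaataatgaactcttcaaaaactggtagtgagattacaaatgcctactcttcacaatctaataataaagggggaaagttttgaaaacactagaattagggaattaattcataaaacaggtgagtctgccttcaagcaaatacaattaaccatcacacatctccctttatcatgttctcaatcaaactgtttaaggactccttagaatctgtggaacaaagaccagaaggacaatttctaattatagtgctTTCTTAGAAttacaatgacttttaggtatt
The match began 100 bases before the RefSeq start in Csn1s1, 93 bases before it in Csn2 and 20 bases after it in Csn1s2a. GENCODE starts Csn1s2a at 87774567, past the end of its window, so the match lies before that start. For Csn2, on the - strand, GENCODE places the start at 87699630, so the match lies after that start and inside the gene. Of 8 milk genes looked up, 5 were in the table and 3 held the motif, which reads the same on both strands and occurs in 8.30% of all 32851 windows. A match describes the letters and is not evidence of binding.

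Prtn3, proteinase 3, is known as a protease of myeloid granules and had 252 CPM (246 to 258) in Recurrent and 10.0 CPM (8.24 to 12.0) in Primary. It was found in 60.9% of luminal-like cells in Recurrent and 5.15% in Primary, so it was not confined to a few cells. Neutrophil-like cells themselves held 1 Prtn3 UMI in Recurrent and 0 in Primary. Of the 8 neutrophil markers, Csf3r, Cxcr2 and Stfa2l1 were at 0 in Recurrent luminal-like cells. In neutrophil-like cells Cxcr2 had 0 UMIs in both libraries, and Csf3r had 2 in Recurrent and 0 in Primary. The absence of Csf3r and Cxcr2 from luminal-like cells therefore cannot bear on neutrophil RNA. Stfa2l1 had 10 UMIs in Recurrent and 26 in Primary neutrophil-like cells. Retnlg and Mmp9 each had 2 UMIs in Recurrent and 0 in Primary luminal-like cells. S100a9 had 1.34 CPM in Recurrent and 3.33 CPM in Primary luminal-like cells. S100a8, by contrast, had 218 CPM in Recurrent and 51.6 CPM in Primary luminal-like cells. The granule gene Mpo had 75 UMIs (2.64 CPM) in Recurrent and 6 (0.526 CPM) in Primary, the marker Hdc had 23 UMIs in Recurrent and 2 in Primary, and Elane had 5 UMIs in Recurrent and 0 in Primary. Camp and Ngp had none in either. The part of neutrophil RNA in Prtn3 was not tested. Klk10, a kallikrein-related peptidase, had 413 CPM in Recurrent and 50.4 CPM in Primary. Cpe, carboxypeptidase E, had 271 CPM in Recurrent and 46.1 CPM in Primary. Car2, a carbonic anhydrase, had 140.5 CPM in Recurrent and 24.5 CPM in Primary.

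Acute-phase and antimicrobial genes were higher in Recurrent luminal-like cells in 8 of 14 measured members and lower in 0, with a median log2 ratio of 1.25. Of the 14, 4 reached more than 5-fold their luminal-like level in some other class of at least 50 cells. Neutrophil-like cells, 40 in Recurrent, were too few to be among the Recurrent classes compared. Saa1, a serum amyloid A, had 91.4 CPM in Recurrent and 16.5 CPM in Primary, and Saa2 had 55.7 CPM in Recurrent and 5.52 CPM in Primary. These 2 genes are near-identical copies, so reads may be split between them. Saa3 had 278 UMIs in Recurrent and 7 in Primary. Haptoglobin, Hp, which binds free haemoglobin, had 29.3 CPM in Recurrent and 3.59 CPM in Primary. Lrg1, a leucine-rich glycoprotein of inflammation, had 404 CPM in Recurrent and 78.0 CPM in Primary, and some other Primary class had 842 CPM. Ceruloplasmin, Cp, had 279 CPM in Recurrent and 118 CPM in Primary.

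Chemokine and cytokine genes went both ways in luminal-like cells. Of 22 measured chemokine and cytokine genes, 9 were at least 2-fold higher and 3 lower in Recurrent, with a median log2 ratio of 0.66. Ccl20, which attracts cells bearing CCR6, had 117 CPM in Recurrent and 15.7 CPM in Primary. Cxcl1, a neutrophil attractant, had 672 CPM in Recurrent and 259 CPM in Primary. Csf3, the granulocyte growth factor, had 45.8 CPM in Recurrent and 6.14 CPM in Primary. Cxcl9, an interferon-gamma-induced attractant of T cells, had 37.0 CPM in Recurrent and 14.2 CPM in Primary. Ccl2, the main monocyte attractant, stood at 9.04 CPM in Recurrent and 60.1 CPM in Primary. Ccl7, of the same kind, had 2.53 CPM in Recurrent and 28.6 CPM in Primary. Ccl7, like Cxcl2 (814 CPM in Recurrent and 160.4 CPM in Primary) and Il33 (25.8 CPM in Recurrent and 1.23 CPM in Primary), reached more than 5-fold its luminal-like level in some other class of the same library, and the part of free RNA in these 3 was not tested; 10 of the 22 were of this kind. Icam1, an adhesion receptor for leukocytes, had 112 CPM in Recurrent and 23.7 CPM in Primary.

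**Figure D2:**
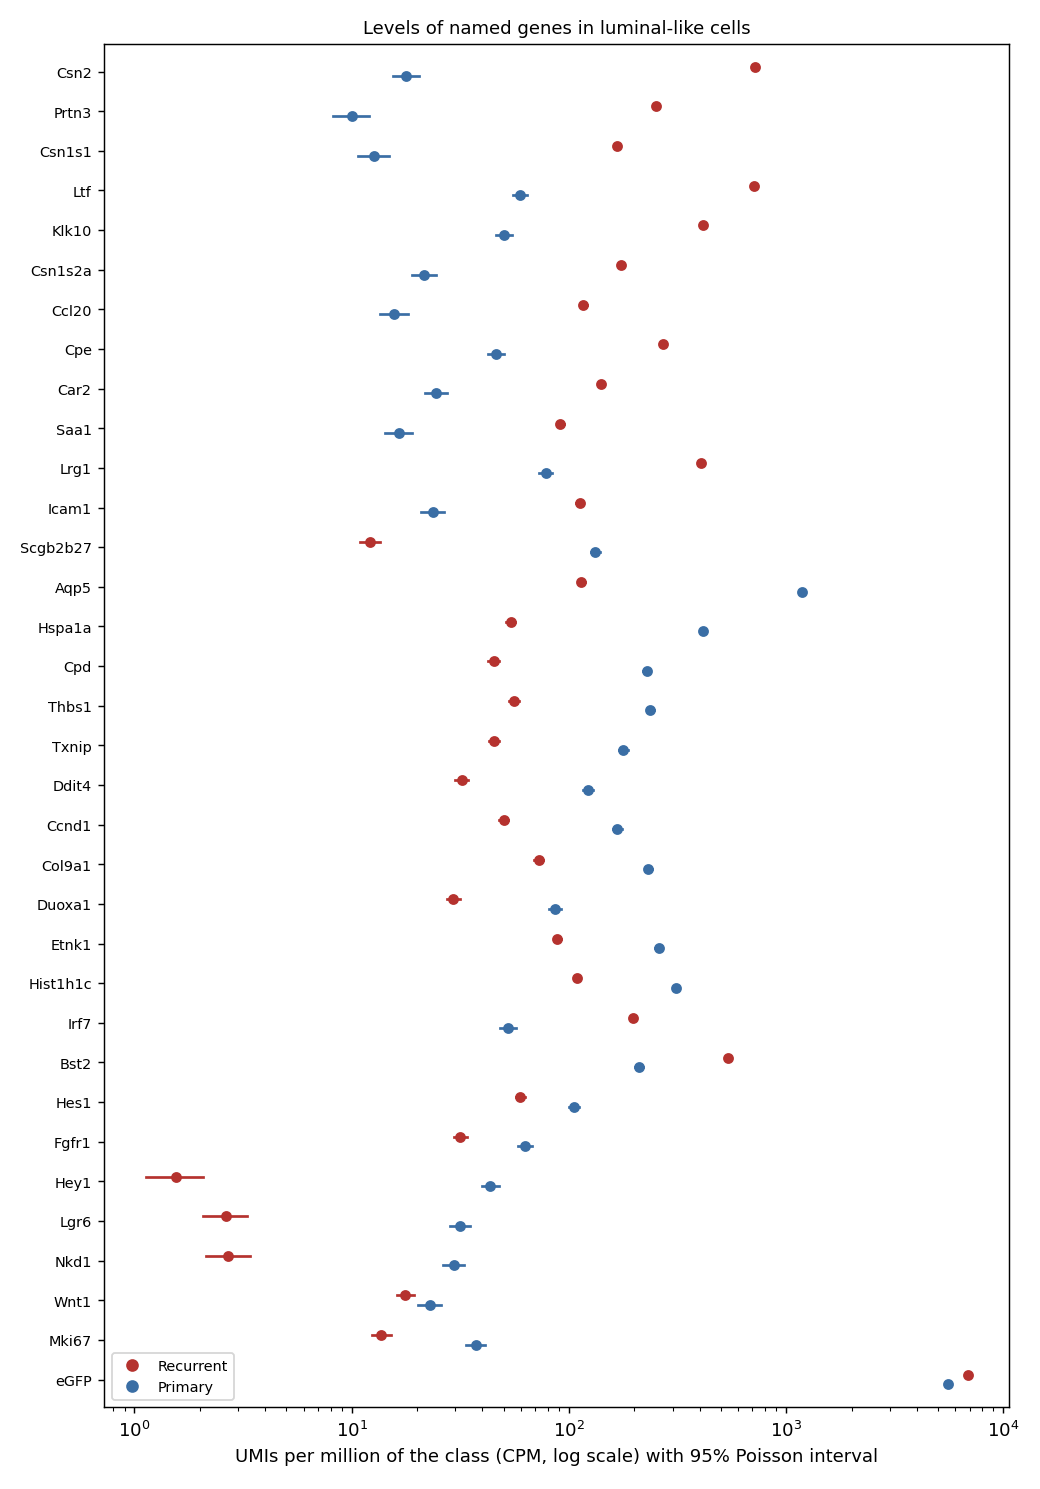
Levels in luminal-like cells (CPM, log axis) of the 24 genes named by ratio and of 10 further genes, Recurrent in red above Primary in blue for each gene; lines are 95% Poisson intervals, often narrower than the point. Csn2 at 716 CPM in Recurrent and 17.8 CPM in Primary and Hey1 at 1.55 CPM in Recurrent and 43.5 CPM in Primary mark the widest gaps in each direction among the genes drawn.

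Interferon-stimulated genes were higher as a group in Recurrent luminal-like cells. Of 22 measured, 7 were at least 2-fold higher and 1 lower, with a median log2 ratio of 0.77, and 5 of the 22 reached more than 5-fold their luminal-like level in some other class. Irf7, the transcription factor that amplifies interferon production, had 198 CPM (193 to 203) in Recurrent and 52.4 CPM (48.3 to 56.8) in Primary, and its thinned share of cells was 28.97% in Recurrent and 8.82% in Primary. In macrophage- or monocyte-like cells, which express it too, that share was 26.5% in Recurrent and 9.49% in Primary. Bst2, or tetherin, which holds viruses at the cell surface, had 537 CPM in Recurrent and 211 CPM in Primary. Isg15, a ubiquitin-like modifier, had 136 CPM in Recurrent and 64.4 CPM in Primary. Zbp1, a sensor of Z-form nucleic acid, had 49.5 CPM in Recurrent and 20.9 CPM in Primary. The lower member, Rsad2, had 5.67 CPM in Recurrent and 12.1 CPM in Primary and was above 5-fold that level in some other Primary class. Genes of MHC class I and peptide loading, many of which interferon also induces, were within 2-fold in 18 of 18, with a median of 0.10 (-0.0069 when scaled without mitochondrial, ribosomal and haemoglobin genes). The promoters of Bst2 and Isg15 are shown because interferon-stimulated response elements carry a pair of GAAA copies separated by any 2 bases. The windows are of the same kind as above, and capitals mark the matches, which overlap each other in both.
Bst2, chr8:71537423-71537722, - strand: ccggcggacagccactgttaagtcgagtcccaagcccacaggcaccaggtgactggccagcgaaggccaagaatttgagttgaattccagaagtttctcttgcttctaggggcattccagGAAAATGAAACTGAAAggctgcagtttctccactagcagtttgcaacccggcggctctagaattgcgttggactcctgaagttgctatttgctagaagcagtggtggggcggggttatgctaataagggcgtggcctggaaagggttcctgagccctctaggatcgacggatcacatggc
Isg15, chr4:156200769-156201068, - strand: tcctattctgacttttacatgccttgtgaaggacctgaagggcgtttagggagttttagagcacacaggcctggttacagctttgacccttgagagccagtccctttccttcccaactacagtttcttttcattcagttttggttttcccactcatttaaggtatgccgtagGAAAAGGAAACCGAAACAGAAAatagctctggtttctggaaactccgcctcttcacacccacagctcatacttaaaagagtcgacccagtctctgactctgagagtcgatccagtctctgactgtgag
Bst2 held 2 matches and Isg15 held 3, the first of them 130 and 78 bases before the start. Of the 7 higher genes, 5 were in the table and 4 held the motif on either strand, against 3.44% of all windows. The genes came from a list of interferon-stimulated genes, so a high share was likely whatever their ratio. List members that were not higher were not looked up, and a match is not evidence of binding. Irf7 held no match in its window.

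Wnt feedback genes were lower in Recurrent luminal-like cells, while Wnt1, the gene carried by the transgene, was within 2-fold. Wnt1 (chromosome 15, 98789857 to 98793837) had 17.7 CPM (16.2 to 19.3) in Recurrent and 22.9 CPM (20.2 to 25.8) in Primary. At 2000 UMIs per cell, Wnt1 was found in 2.67% (2.09 to 3.37%) of luminal-like cells in Recurrent and 3.41% (2.58 to 4.40%) in Primary, against 0.121% of immune cells in Recurrent and 0.117% in Primary. Thinning left out 205 of 1863 Recurrent and 438 of 2141 Primary immune cells. Of 13 measured Wnt feedback and target genes, 8 were at least 2-fold lower and 0 higher, with a median log2 ratio of -1.39. Lgr6, a receptor that enhances Wnt signals, had 2.64 CPM (2.08 to 3.31) in Recurrent and 31.5 CPM (28.3 to 34.9) in Primary. Nkd1, a feedback inhibitor that binds dishevelled, had 2.71 CPM in Recurrent and 29.5 CPM in Primary, and its relative Nkd2 had 8.02 CPM in Recurrent and 35.1 CPM in Primary. In Primary basal-like cells Lgr6 had 94.2 CPM and Nkd1 had 50.3 CPM. Nkd2, Wif1 and Znrf3 likewise had 104.6, 114 and 42.8 CPM there. The part of basal RNA in these 5 genes was not tested, and basal epithelial markers summed to 74.1 CPM in Recurrent and 52.7 CPM in Primary luminal-like cells. Znrf3, which removes frizzled receptors, had 7.42 CPM in Recurrent and 26.0 CPM in Primary. Wif1, a secreted Wnt binder, had 7.21 CPM in Recurrent and 23.5 CPM in Primary. Ccnd1, cyclin D1, had a log2 ratio of -1.74, and Myc had 18.4 CPM in Recurrent and 48.0 CPM in Primary. Of the 8 lower genes, 4 had a promoter window in the table, and 0 of the 4 held the letters CTTTGA of TCF factors on either strand, which 16.0% of all windows hold. The feedback gene Axin2 was low in both, with 3.45 CPM in Recurrent and 4.56 CPM in Primary. Among Wnt ligands, Wnt4, a progesterone-induced signal, had 99 UMIs in Recurrent and 8 in Primary.

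Of 4 measured Notch target genes 2 were at least 2-fold lower in Recurrent luminal-like cells, and of 5 measured receptor and ligand genes 1 was. In some other class, 2 of the 4 targets and 2 of the 5 receptors and ligands reached more than 5-fold their luminal-like level. Hey1 (chromosome 3, 8663359 to 8667256), a transcriptional repressor, had 1.55 CPM (1.12 to 2.08) in Recurrent and 43.5 CPM (39.7 to 47.5) in Primary. At 2000 UMIs per cell it was found in 0.349% of cells in Recurrent and 7.66% in Primary, against 0% of macrophage- or monocyte-like cells in Recurrent and 0.174% in Primary. Hes1, the other classic target, had 59.9 CPM (57.0 to 62.8) in Recurrent and 106 CPM (99.7 to 112) in Primary, within 2-fold. Of the receptors, Notch1 had 21.2 CPM in Recurrent and 28.7 CPM in Primary and Notch2 had 17.7 CPM in Recurrent and 21.6 CPM in Primary. The ligand gene Jag1 had 2.64 CPM in Recurrent and 4.21 CPM in Primary in luminal-like cells. In macrophage- or monocyte-like cells Jag1 had 24.5 CPM in Recurrent and 25.5 CPM in Primary.

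FGF receptor genes were lower or close to the 2-fold line in Recurrent luminal-like cells, and MAP kinase feedback genes were mixed. Fgfr1 had 31.6 CPM (29.6 to 33.8) in Recurrent and 62.5 CPM (58.0 to 67.3) in Primary, a ratio of 0.506, just inside the 2-fold line. Fgfr3 had 0.669 CPM in Recurrent and 4.47 CPM in Primary. Fgfr2 had 3 UMIs in each library, too few to compare. Whether reads of the inducible receptor construct were counted under a mouse receptor gene is not given in the sources used here. Spry1, a feedback inhibitor of receptor signalling, had 7.32 CPM in Recurrent and 24.5 CPM in Primary, and Errfi1, which restrains the EGF receptor, had 194 CPM in Recurrent and 525 CPM in Primary. In the other direction, Dusp7, a phosphatase of ERK, had 79.1 CPM in Recurrent and 28.5 CPM in Primary. Of 17 measured MAP kinase feedback genes, 1 was at least 2-fold higher and 2 lower, with a median of -0.49. Areg, an EGF receptor ligand, had 29.98 CPM in Recurrent and 6.84 CPM in Primary, and Ereg, another, had 30 UMIs in Recurrent and 0 in Primary, at least 4.01-fold higher when the 0 is set to 3 UMIs in the class.

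**Figure D3:**
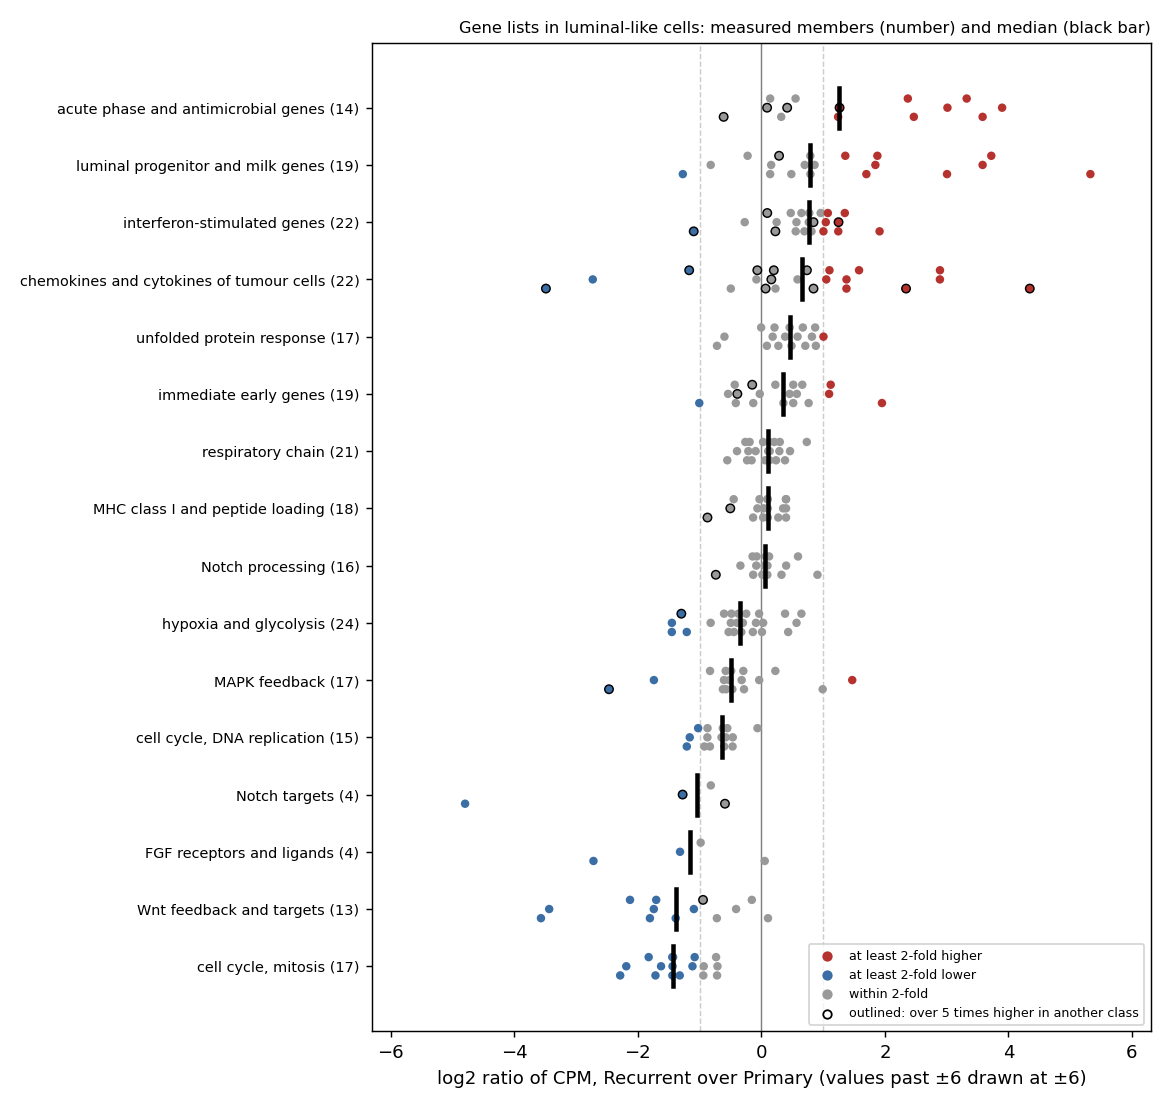
Log2 ratio of CPM, Recurrent over Primary, for each measured member of 16 gene lists in luminal-like cells, with the number measured in brackets and the list's median as a black bar; red and blue points lie past 2-fold, and outlined points reach more than 5-fold that level in some other class of the same library. Medians run from 1.25 for acute-phase genes to -1.43 for mitosis genes, while the respiratory chain and MHC class I lists sit near 0.

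Mitotic genes were lower in Recurrent luminal-like cells. Of 17 measured, 12 were at least 2-fold lower and 0 higher, with a median log2 ratio of -1.43. Cenpf, a kinetochore protein, had 9.43 CPM (8.33 to 10.6) in Recurrent and 46.0 CPM (42.2 to 50.1) in Primary, Cdc20 had 14.0 CPM in Recurrent and 49.6 CPM in Primary, and Top2a had 14.5 CPM in Recurrent and 47.6 CPM in Primary. Mki67, the usual marker of cycling, had 13.7 CPM in Recurrent and 37.2 CPM in Primary. At 2000 UMIs per cell, Mki67 was found in 1.47% (1.04 to 2.01%) of luminal-like cells in Recurrent and 5.17% (4.15 to 6.35%) in Primary, against unthinned shares of 8.14% in Recurrent and 12.9% in Primary. Genes of DNA replication were at least 2-fold lower in 3 of 15, with a median of -0.65; Mcm6, of the replicative helicase, had 12.9 CPM in Recurrent and 29.9 CPM in Primary. Among cell cycle inhibitors, Btg2 had 266 CPM in Recurrent and 716 CPM in Primary, and Cdkn2b had 10.7 CPM in Recurrent and 5.26 CPM in Primary. Cdkn1a, or p21, had 98.8 CPM in Recurrent and 66.4 CPM in Primary, within 2-fold.

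Among the genes ranked by ratio, 12 were lower in Recurrent luminal-like cells. Aqp5, a water channel of secretory glands, had 114 CPM (110 to 118) in Recurrent and 1180.5 CPM (1161 to 1201) in Primary, and its thinned share of cells was 13.4% in Recurrent and 63.8% in Primary. Scgb2b27, a secretoglobin with close paralogs, had 12.1 CPM in Recurrent and 132 CPM in Primary. Thbs1, thrombospondin 1, had 55.9 CPM in Recurrent and 237 CPM in Primary. Col9a1, a collagen chain, had 72.5 CPM in Recurrent and 232 CPM in Primary. Txnip, an inhibitor of thioredoxin, had 45.2 CPM in Recurrent and 178 CPM in Primary, and Ddit4, which restrains mTOR, had 32.1 CPM in Recurrent and 123 CPM in Primary. Cpd had 45.0 CPM in Recurrent and 228 CPM in Primary, Etnk1 had 88.4 CPM in Recurrent and 259 CPM in Primary, and Duoxa1, needed for dual oxidase, had 29.3 CPM in Recurrent and 86.2 CPM in Primary. Hypoxia and glycolysis genes were mostly within 2-fold, 20 of 24, with 4 lower, among them Egln3 at 27.3 CPM in Recurrent and 74.4 CPM in Primary.

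Lineage and junction genes were mixed. The transcription factor gene Tfap2b (chromosome 1, 19208914 to 19238576) had 0 UMIs in Recurrent and 131 in Primary luminal-like cells, at least 109-fold lower with the 0 set to 3 UMIs in the class. Id2, an inhibitor of helix-loop-helix factors, had 243 CPM in Recurrent and 546 CPM in Primary. Foxi1, a forkhead factor, had 14.8 CPM in Recurrent and 2.37 CPM in Primary, and Cebpd had 490 CPM in Recurrent and 200 CPM in Primary. Gata3 and Elf5, factors of luminal identity, were within 2-fold, Gata3 at 61.6 CPM in Recurrent and 120 CPM in Primary and Elf5 at 209 CPM in Recurrent and 121 CPM in Primary. Cldn10, a tight-junction claudin, had 8.94 CPM in Recurrent and 42.6 CPM in Primary, and Ovol1, an epithelial repressor, had 48.7 CPM in Recurrent and 17.4 CPM in Primary. Cyp1b1, a steroid- and xenobiotic-metabolising enzyme, had 201 CPM in Recurrent and 48.0 CPM in Primary. Of 10 measured epithelial-mesenchymal genes, 3 were higher and 3 lower, with a median of -0.70 that was 0.72 without candidates for free RNA, and 8 of the 10 reached more than 5-fold that level in some other class. eGFP was present in 98.7% of luminal-like cells in Recurrent and 99.2% in Primary, at 6849 CPM in Recurrent and 5583 CPM in Primary, and in 17.6% of immune cells in Recurrent and 10.6% in Primary.

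Many named genes, mostly picked by their ratio over these same cells, differed in the same direction across subsets of luminal-like cells. Several list medians were near 0 in some subsets. Ratios were taken within each of the 9 luminal-like clusters with at least 50 cells in each library, which share their library and so are not replicates. Csn2, Prtn3, Csn1s1, Ltf, Klk10, Ccl20, Cpe, Car2, Hp, Lrg1, Irf7 and Fosl1, a subunit of the AP-1 factor, were at least 2-fold higher in Recurrent in 9 of 9. Hey1, Lgr6, Nkd1, Znrf3, Aqp5, Cpd, Thbs1, Txnip, Ccnd1 and Tfap2b were at least 2-fold lower in 9 of 9. The log2 ratio of Csn2 spanned 2.49 to 10.30 between clusters, that of Prtn3 only 4.11 to 5.81, and that of Hey1 -6.52 to -2.74. Of the 12 leading higher genes, Csn1s2a and Icam1 were at least 2-fold higher in 8 of 9 clusters and Saa1 in 7 of 9, with Saa1 spanning -0.45 to 7.52. Wnt1 was on both sides of 0, from -1.72 to 0.71, and lower in 5 of 9. The median of the mitosis list ran from -2.53 to 0.23 between clusters, and that of the Wnt feedback list from -1.82 to -0.75. For interferon-stimulated genes it ran from 0.08 to 1.46 and for chemokines and cytokines from -0.06 to 0.80. Notch targets ran from -1.94 to -0.17 and FGF receptors and ligands from -2.04 to 0.19.

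**Figure D4:**
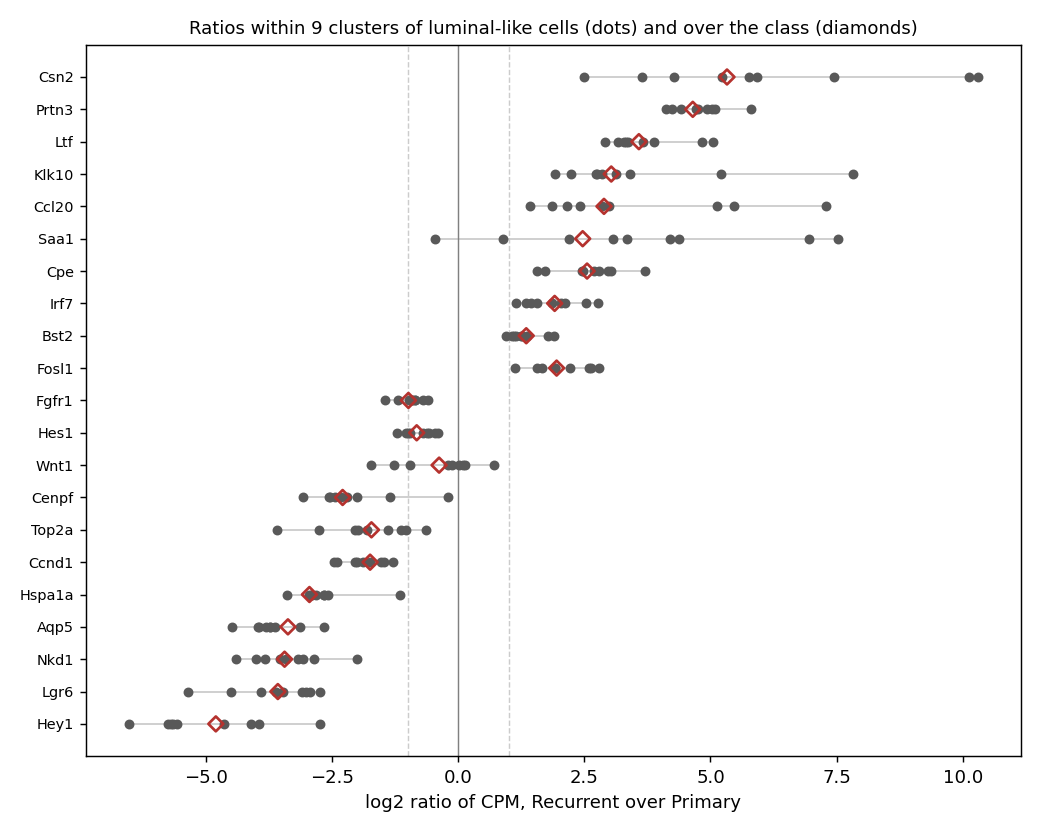
Log2 ratio of CPM, Recurrent over Primary, of 21 genes within each of 9 clusters of luminal-like cells (grey dots) and over all luminal-like cells (red diamonds); dashed lines mark 2-fold. All 9 dots of Prtn3 lie between 4.11 and 5.81, while those of Saa1 run from -0.45 to 7.52 and those of Wnt1 fall on both sides of 0.

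Macrophage- or monocyte-like cells, 1174 in Recurrent and 1168 in Primary, were closer between the libraries. Of 8752 genes with at least 50 UMIs, 237 (2.71%) were at least 2-fold higher and 104 (1.19%) at least 2-fold lower in Recurrent, with a median log2 ratio of 0.01. All 12 macrophage markers were detected in both, with a summed level of 17404 CPM in Recurrent and 18228 CPM in Primary, and epithelial markers summed to 153 CPM in Recurrent and 94.7 CPM in Primary. The higher genes included cytokines, resident-macrophage receptors and antioxidant enzymes, and the lower ones histones, matrix metalloproteinases and mitotic genes.

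Several cytokine genes of these cells were higher in Recurrent. Of 25 measured inflammatory cytokines and chemokines, 6 were at least 2-fold higher and 0 lower, with a median log2 ratio of 0.45. Tnf, tumour necrosis factor (chromosome 17, 35199381 to 35202007), had 776 CPM (757 to 795) in Recurrent and 215 CPM (206 to 225) in Primary, and was found in 74.7% of cells in Recurrent and 48.5% in Primary. Il10, an anti-inflammatory cytokine, had 54.4 CPM in Recurrent and 21.7 CPM in Primary, and Il1rn, the antagonist of interleukin 1, had 542 CPM in Recurrent and 232 CPM in Primary. The chemokine gene Ccl4 had 2253 CPM in Recurrent and 1046 CPM in Primary. Ccl2 had 360 CPM in Recurrent and 179 CPM in Primary. Rcan1, an inhibitor of calcineurin, had 136 CPM in Recurrent and 30.8 CPM in Primary. Nr4a3, an orphan nuclear receptor, had 83.1 CPM in Recurrent and 21.2 CPM in Primary, and Maff, a small MAF factor, had 277 CPM in Recurrent and 87.3 CPM in Primary. Mdm2, the negative regulator of p53, had 113 CPM in Recurrent and 36.3 CPM in Primary, and Sertad1 had 123 CPM in Recurrent and 40.1 CPM in Primary.

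Genes of resident and alternatively activated macrophages were higher in 8 of 16 measured and lower in 1, with a median of 0.73. Retnla, a product of alternative activation, had 653 CPM (635 to 671) in Recurrent and 49.8 CPM (45.3 to 54.6) in Primary. It came from few cells, 8.77% in Recurrent and 1.88% in Primary, and the top cell held 12.1% of its UMIs in Recurrent and 38.8% in Primary. Folr2, a folate receptor of resident macrophages, had 94.5 CPM in Recurrent and 40.9 CPM in Primary. F13a1, coagulation factor XIII, had 60.3 CPM in Recurrent and 16.8 CPM in Primary, and Fcna, a ficolin, had 21.2 CPM in Recurrent and 2.30 CPM in Primary. The lectin gene Cd209f had 137 UMIs in Recurrent and 0 in Primary, at least 52.0-fold higher with the 0 set to 3 UMIs in the class; reads may be shared with its paralog Cd209g, which had 63 UMIs in Recurrent and 0 in Primary. Cd209f was found in 1.53% of Recurrent cells. The lower member was Pf4, platelet factor 4, with 120 CPM in Recurrent and 255 CPM in Primary. Lyz1, a lysozyme gene whose reads may be shared with Lyz2, had 87.1 CPM in Recurrent and 14.8 CPM in Primary, with 48.1% of the Primary UMIs in 1 cell.

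Interferon and antioxidant genes were also higher in Recurrent macrophage- or monocyte-like cells. Of 22 measured interferon-stimulated genes, 7 were at least 2-fold higher and 0 lower, with a median of 0.87. Irf7 had 236 CPM in Recurrent and 79.4 CPM in Primary, and Ifi44 had 25.6 CPM in Recurrent and 5.92 CPM in Primary. Of 13 measured NRF2 and glutathione genes, 4 were at least 2-fold higher and 0 lower, with a median of 0.50. Txnrd1, thioredoxin reductase, had 138 CPM in Recurrent and 48.7 CPM in Primary. Srxn1, sulfiredoxin, had 62.8 CPM in Recurrent and 20.9 CPM in Primary, and Slc7a11, the cystine transporter, had 27.8 CPM in Recurrent and 9.65 CPM in Primary. Mmp12, macrophage elastase, had 130 CPM in Recurrent and 421 CPM in Primary, and Mmp13, a collagenase, had 16.8 CPM in Recurrent and 50.3 CPM in Primary. Tsc22d3, a glucocorticoid-induced gene, had 72.9 CPM in Recurrent and 176 CPM in Primary. Mitosis genes were at least 2-fold lower in 5 of 17, with a median of -0.90, yet Mki67 itself had 19.1 CPM in Recurrent and 16.3 CPM in Primary. Of 20 measured lipid-associated macrophage genes 19 were within 2-fold, the exception being Spp1 with 2603 CPM in Recurrent and 1243 CPM in Primary. All 9 measured genes of MHC class II, which present antigen to helper T cells, were within 2-fold, with a median of -0.34. Within the 5 clusters that had at least 50 cells in each library, Tnf, Retnla, Rcan1, Nr4a3, Maff, Mdm2, Sertad1 and Irf7 were at least 2-fold higher in 5 of 5. Hist1h1c and Hist1h2ap were at least 2-fold lower in 5 of 5, and Mmp12 in 4 of 5.

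**Figure D5:**
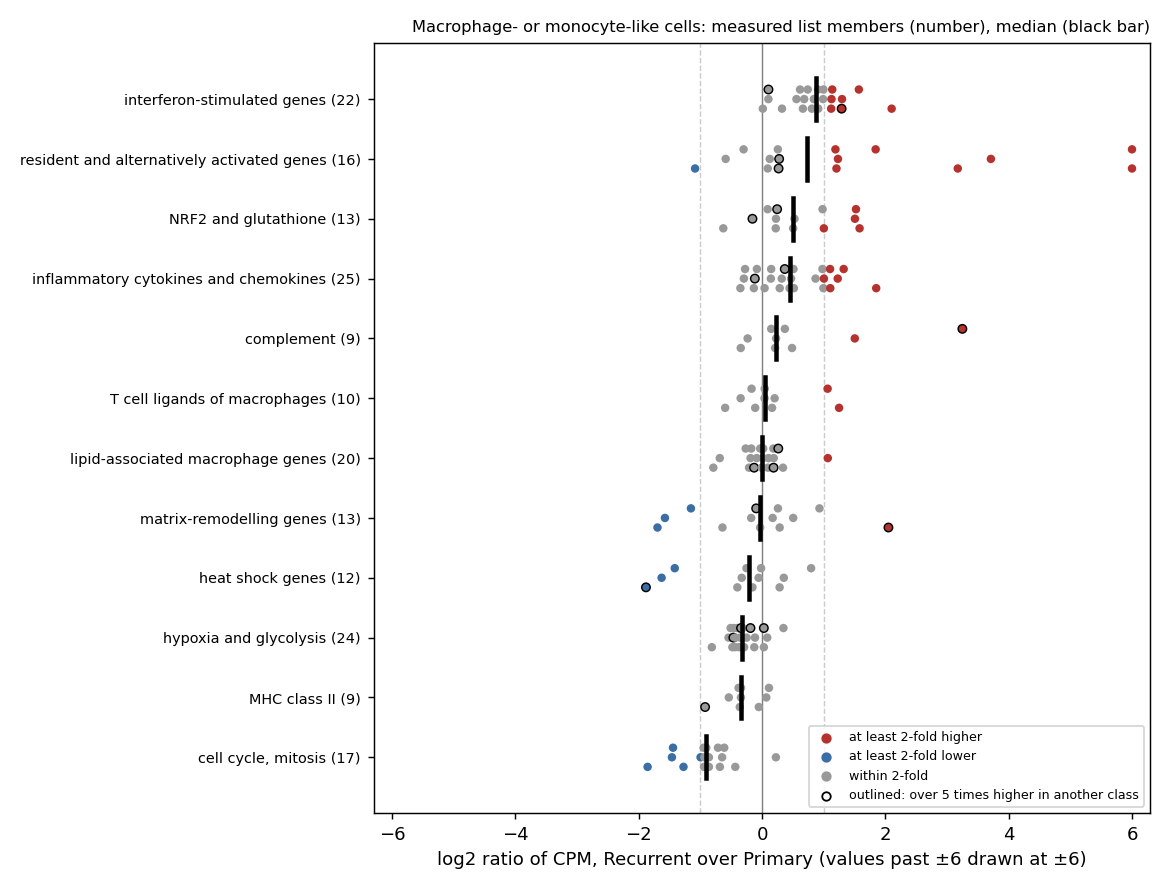
Log2 ratio of CPM, Recurrent over Primary, for each measured member of 12 gene lists in macrophage- or monocyte-like cells, with medians as black bars; 2 points past 6 (Cd209f and Cd209g, at 0 UMIs in Primary) are drawn at 6. The interferon list has the highest median, 0.87, and mitosis the lowest, -0.90.

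T- and NK-like cells numbered 470 in Recurrent and 707 in Primary, and had a median of 2971 UMIs in Recurrent and 2085 in Primary. Of 5365 genes with at least 50 UMIs, 134 (2.5%) were at least 2-fold higher and 54 (1.01%) at least 2-fold lower in Recurrent. Several of the higher genes came from few cells. Gzmf, a granzyme with near-identical neighbours, had 269 UMIs in Recurrent and 0 in Primary, at least 104-fold higher with the 0 set to 3 UMIs in the class, from 4.68% of Recurrent cells. Ccl21a had 207 UMIs in Recurrent and 0 in Primary, all of them in 1 cell. A single Recurrent cell held 90.8% of the Slpi UMIs and 68.3% of the Trf UMIs, both genes of epithelium, and epithelial markers in this class summed to 454 CPM in Recurrent and 251 CPM in Primary. The 6 plasma cell markers summed to 515 CPM in Recurrent, with 1 of the 6 at 0, and 91.2 CPM in Primary, with 4 of the 6 at 0. The part of RNA from these other cells in the class was not tested. Genes spread over more cells were Nr4a3, found in 27.7% of cells in Recurrent and 6.22% in Primary, and Cdkn1a, found in 21.1% of cells in Recurrent and 6.22% in Primary. Nr4a3 had 108 CPM in Recurrent and 29.5 CPM in Primary, and Nr4a2, its relative, had 312 CPM in Recurrent and 151 CPM in Primary; both follow antigen receptor signals.

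Effector and checkpoint genes in T- and NK-like cells were mixed. The class pools clusters whose mix differed between the libraries, and ratios within them are not given. A cluster with Pdcd1, Cxcr6 and Ccl5 among its top genes held 28 Recurrent and 71 Primary cells. Another, led by Gzmb, held 43 Recurrent and 27 Primary cells. A shallow cluster with Tnfrsf4 and Ikzf2 among its top genes, at a median of 1322 UMIs, held 39 Recurrent and 109 Primary cells. A further one with the same genes among its top genes, at a median of 1360 UMIs, held 44 Recurrent and 100 Primary cells. The part of this mix in the ratios below was not tested. Ccl5, a chemokine of memory and effector T cells, had 1199 CPM (1147 to 1253) in Recurrent and 2766 CPM (2693 to 2842) in Primary. The residency-linked chemokine receptor Cxcr6 had 116 CPM in Recurrent and 258 CPM in Primary. Sh2d1a, the adaptor SAP, had 27.2 CPM in Recurrent and 77.2 CPM in Primary, and the interleukin 7 receptor gene Il7r had 37.4 CPM in Recurrent and 79.3 CPM in Primary. The checkpoint receptor genes Pdcd1, at 147 CPM in Recurrent and 281 CPM in Primary, and Lag3, at 65.2 CPM in Recurrent and 122 CPM in Primary, were within 2-fold. Of 13 measured granzyme, perforin and effector cytokine genes, 1 was higher and 2 lower, and of 13 measured checkpoint and exhaustion genes, 2 were higher and 1 lower. All 19 measured activation and costimulation genes were within 2-fold, with a median of -0.10. Mitosis genes, in contrast to the other classes, had a median of 0.82, with 2 of 14 at least 2-fold higher. Mki67 was found in 6.92% (4.48 to 10.1%) of thinned cells in Recurrent and 3.79% (2.09 to 6.28%) in Primary at 2000 UMIs per cell, intervals that overlap. Thinning left out 123 of 470 Recurrent and 338 of 707 Primary cells, so these shares cover only the deeper cells of the class. The unthinned shares were 8.30% in Recurrent and 4.10% in Primary.

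Hspa1a and Hist1h1c were lower in Recurrent in each class compared. Hspa1a, the inducible HSP70, whose reads may be shared with its copy Hspa1b, had 53.8 CPM in Recurrent and 414 CPM in Primary in luminal-like cells. It had 91.4 CPM in Recurrent and 283 CPM in Primary in macrophage- or monocyte-like cells and 37.4 CPM in Recurrent and 279 CPM in Primary in T- and NK-like cells. The linker histone gene Hist1h1c had 109 CPM in Recurrent and 312 CPM in Primary in luminal-like cells and 38.3 CPM in Recurrent and 177 CPM in Primary in macrophage- or monocyte-like cells. In T- and NK-like cells it had 21.7 CPM in Recurrent and 209 CPM in Primary. The heat shock list as a whole had medians of 0.08 in luminal-like (-0.02 when scaled without mitochondrial, ribosomal and haemoglobin genes), -0.20 in macrophage- or monocyte-like and -0.17 in T- and NK-like cells.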

How the data were processed

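Single-cell RNA was measured in 1 Recurrent and 1 Primary library. The authors deposited UMI counts for both in 1 table. Cell Ranger 3.1.0, FastQC and the mm10 build are listed per the submitters' processing notes. Filtering steps taken earlier are not given in the sources used here. The other libraries were not used here.

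Scrublet was run per library after the cell filter (scanpy 1.11.5). Both libraries were clustered together on the marker genes, after scaling to 10000 per cell, log1p and clipping at 10. Leiden (leidenalg 0.10.2, seed 0, resolution 1.0) ran on a graph of 15 neighbours from 30 components. To be named, a cluster had to show 3 or more markers, each in 5% of its cells, and no more markers of another class among its top 10 genes by fold. Folds were taken against cells of other families, a choice made after the clusters were seen. A shallow cluster of macrophage score with 20 Recurrent and 41 Primary cells stayed unnamed.

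UMIs were summed per class and library. CPM had exact Poisson intervals, ratios exact conditional Poisson intervals and shares exact Clopper-Pearson intervals; log2 ratios used a prior of 0.5 counts. Named were genes with a mean of at least 50 CPM and a ratio interval outside 2-fold, 12 each way in luminal-like, 8 in macrophage- or monocyte-like and 6 in T- and NK-like cells where as many qualified, up to 4 at each end of every list, and genes always given (Jag1, Notch1, Notch2, Hes1, Hey1, Wnt1, Fgfr1, Fgfr2, Cdkn1a, Mki67 and eGFP). Clustering markers and candidates for free RNA were left out of the ranking. Candidates were genes above 5-fold that level in some other class of at least 50 cells in the library where the gene was higher. Smaller classes were not screened, among them neutrophil-like (40 cells) and basal-like (15) in Recurrent. In Primary, fibroblast-like (8) and plasmacytoid-dendritic-like (38) cells were likewise not screened. Elf5, Gata3, Axin2, Csn3, Trf, Lag3, Pdcd1, Il7r, the neutrophil genes, the thinned shares of Csn2, Ltf, Irf7, Hey1 and Aqp5 and the ratios within clusters were picked with those values in view. The members, lists and comparisons were chosen with earlier results of these data known. Code was tested on simulated data. Positions are from GENCODE (mm10). Python 3.11.15, numpy 2.4.6, scipy 1.17.1 and pandas 2.3.3 were used, and edgeR 4.0.16 in R 4.3.3 gave TMM factors.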

Additional observations from a re-analysis of the deposited data

Results flagged for a closer look

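The mitosis list had opposite signs in different classes, with a median log2 ratio of Recurrent over Primary of -1.43 in luminal-like and -0.904 in macrophage- or monocyte-like cells and 0.819 in T- and NK-like cells. Its members Cenpe, at -2.19 in luminal-like and 1.07 in T- and NK-like cells, and Cenpf, at -2.29 in luminal-like and 1.01 in T- and NK-like cells, were past 2-fold in both directions. Ccl2 stood at -2.73 in luminal-like and 1.0 in macrophage- or monocyte-like cells. With 1 library in each group these differences between classes were not tested.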

How the results depend on the processing

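Of 844 list medians computed under the alternatives, 45, from 17 of 74 lists, changed sign. For the 47 genes ranked by ratio, 0 of 541 ratios did. Those genes were picked for ratio intervals outside 2-fold in these same cells, so that count cannot measure robustness. In 15 of the 17 lists the median was within 0.2 of 0. The exceptions, both in luminal-like cells, were epithelial-mesenchymal genes, at 0.72 without candidates for free RNA in place of -0.70, and drug transporter and detoxification genes, at 0.70 without such candidates, 0.70 at a minimum of 200 UMIs and 0.69 with variable genes in place of -0.66. Scaling turned 6 luminal-like medians: TMM put cholesterol genes at 0.05 and cell junctions at 0.06, and the total without mitochondrial, ribosomal and haemoglobin genes put heat shock genes at -0.02, Notch processing at -0.04, lineage factors at -0.08 and MHC class I at -0.0069. Of the gene counts and shares, 56 of 68 counts and 50 of 80 shares moved by less than the limits used, 1.5 times for a count and the counting interval for a share. No paired analysis was possible because each group had 1 library. The luminal-like share of epithelial-like cells was 80.8% in Primary with a stricter cell filter (1000 UMIs, 500 genes, 10% mitochondrial), 99.0% in Recurrent and 80.4% in Primary with doublets kept and 79.3% in Primary with 2000 variable genes. The macrophage- or monocyte-like share of immune cells was 59.2% in Primary with the stricter filter, 65.2% in Recurrent and 57.6% in Primary with doublets kept, 66.5% in Recurrent and 58.8% in Primary at resolution 0.5, 68.2% in Recurrent and 58.9% in Primary at resolution 2.0, and 68.3% in Recurrent and 58.9% in Primary with variable genes. The T- and NK-like share was 30.6% in Primary with the stricter filter, which also left neutrophil-like shares of 0.114% in Recurrent and 0.205% in Primary. The dendritic-like share was 2.13% in Recurrent and 2.91% in Primary with doublets kept, 2.16% in Recurrent and 2.97% in Primary at resolution 0.5, 1.88% in Recurrent and 2.80% in Primary at resolution 2.0, and 2.42% in Recurrent and 3.46% in Primary with variable genes. The fibroblast-like share of Primary was 0.749% at resolution 0.5 and 0.772% with variable genes, where pericyte-like cells were 0% in both libraries. Genes at least 2-fold higher and lower numbered 299 and 345 in luminal-like, 121 and 24 in macrophage- or monocyte-like and 33 and 13 in T- and NK-like cells at a minimum of 200 UMIs. At a minimum of 20 UMIs they numbered 394 and 248 in macrophage- or monocyte-like and 306 and 206 in T- and NK-like cells. Beyond these counts, 12 of 844 list medians and 6 of 541 single-gene ratios moved by more than the limit. In T- and NK-like cells 89 genes were lower when each cell weighed alike, and 89 were higher without candidates for free RNA. Scaling without mitochondrial, ribosomal and haemoglobin genes put the luminal-like median over all genes at -0.16 in place of -0.05, with 403 genes higher and 944 lower, and TMM put it at 0.02 with 550 higher and 670 lower. All epithelial-like cells together gave 498 higher and 1082 lower. The cause of these shifts was not tested.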
